A study of Mus musculus with 4 samples.

Results

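Genes of fatty acid oxidation and targets of the nuclear receptor PPAR-alpha were examined in kidneys of Th3 mice and in control kidneys. The genes were listed by function and by name: mitochondrial and peroxisomal beta-oxidation, ketone body metabolism, acyl-CoA thioesterases, and PPAR-alpha with its targets, without the P450 genes. The 43 listed names come to 42 genes among the 27573 gene names on the array, since Dci is an older name of Eci1, and Peci is now called Eci2. They are covered by 57 probes. For 40 of the 42 genes at least 1 probe was well above background in every Th3 sample or in every control sample, and these 40 were tested among 17628 genes.

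Th3 is a model of beta-thalassemia, an inherited anaemia, in which the 2 adult beta-globin genes, beta-major and beta-minor, are deleted. The 4 Th3 samples and the 4 control samples, all of whole kidney, were hybridised as 4 pairs on two-colour oligonucleotide arrays, with Th3 in Cy5 on arrays 1 and 2 and in Cy3 on arrays 3 and 4. The labels give no age, sex or background strain for either group, do not say what the controls carry beyond the word control, and do not say whether the deletion is on 1 chromosome or on both. They also do not say that each sample is its own animal, so p-values measure the spread between these samples, which may be technical.

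Fatty acids enter cells through carriers such as Cd36, are bound by fatty acid binding proteins and are activated to acyl-CoA by the Acsl enzymes. The carnitine shuttle takes long-chain acyl groups into mitochondria, where beta-oxidation shortens them. Peroxisomes begin the oxidation of very long, branched and dicarboxylic chains. PPAR-alpha, paired with RXR-alpha, is the receptor through which fatty acids raise the transcription of many of these genes. In kidney the proximal tubule, rich in mitochondria and peroxisomes, draws much of its energy from fatty acids.

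Defining genes of kidney were present: all 15 proximal tubule genes, all 8 distal nephron genes, all 4 podocyte genes and 7 of 7 endothelial genes listed were above background. Beta-globin (Hbb-b1 on the array, now Hbb-bt) stood in Th3 kidney at 8.48% of control (log2 ratio -3.56 ± 0.48, n = 4, limma adjusted p = 2.7e-06). Probes well above background made up 64.9% to 72.1% in the Th3 channels and 61.8% to 71% in the control channels, and 0 spots were saturated. Across genes, which are no independent replicates, r was 0.671 for arrays 1 and 2 and 0.713 for arrays 3 and 4. It was 0.429 to 0.533 for arrays of opposite dye orientation.

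Of the 40 genes tested, 4 were higher in Th3 kidney, 8 were lower and 28 did not pass. Higher were Acsl1, Acot1, Eci2 and Echs1, and lower were Ucp2, Acot8, Acaa1b, Decr1, Acads, Hadha, Cpt2 and Crat. The call is a Benjamini-Hochberg adjusted p under 0.05 from limma over all 17628 genes, of which 10.9% were higher and 10.6% lower. The 4 higher genes are 10% of the 40, near the share of all genes, and the 8 lower genes are 20%. The 28 others had log2 ratios between -0.12 and 0.60 and adjusted p from 0.0555 to 0.96. The median log2 ratio was -0.01 over the 40 genes and 0.00 over all genes, and 20 of the 40 lay above 0. Acsl1 was the only one of the 40 to reach a 2-fold change. The 8 decreases were small in this fit, between 13.2% and 20.3% below control, and their size varied with the processing. Ucp2 and Decr1 had log2 ratios of -0.33 and -0.30 here, and of -0.45 and -0.41 with Agilent's processed signals. Crat went the other way, from -0.20 to -0.13 with median centring. In 11 of the 40 genes (27.5%) the 4 Th3 samples and the 4 control samples did not overlap in normalized intensity, which held for 21% of all genes.

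These counts rest on few arrays. A fit without 1 array keeps both model terms and so has fewer residual degrees of freedom. Its adjusted p-values lean more on the variance pooled over all genes and less on the spread of the gene itself. Without array 1, 8 of the 40 were higher and 0 lower (7.52% and 7.07% of all genes). Without array 2, 3 were higher and 7 lower (8.13% and 8%), without array 3, 1 and 5 (8.01% and 7.9%), and without array 4, 3 and 3 (9.15% and 8.96%). Centring each array on its median in place of loess gave 5 higher and 1 lower (11% and 6.49%), and it made 62.9% of the calls over all genes increases, against 50.8% with loess. Agilent's processed signals gave 2 and 4 (9.71% and 8.79%), and the fit with no dye term 4 and 3 (6.25% and 5.04%). The mean of a gene's probes gave 5 and 5 (9.88% and 10%), and separate channels 8 and 8 (16.9% and 15.6%). With dye orientation as a random block, which pairs the arrays, 1 was higher and 1 lower (3.66% and 3.14%), namely Acsl1 and Ucp2.

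**Figure D1:**
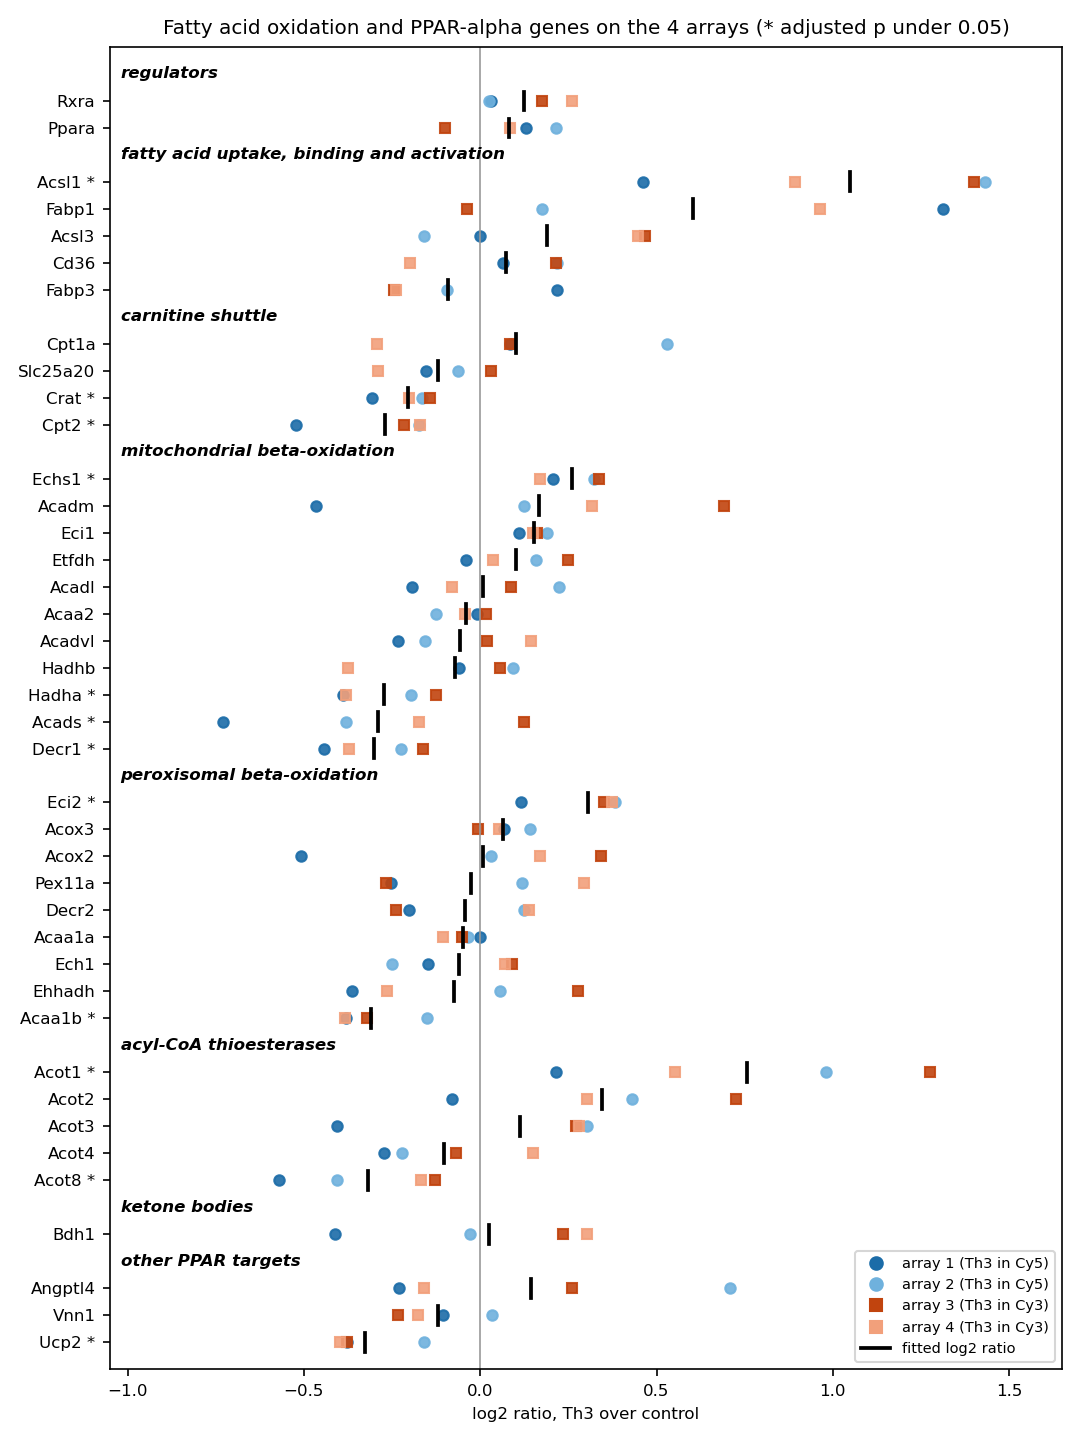
Log2 ratio of Th3 over control for the 40 tested genes, in rows grouped by role, with 1 point for each of the 4 arrays and a bar for the fitted ratio; an asterisk marks an adjusted p under 0.05. Acsl1 and Acot1 lie furthest to the right, most genes lie within 0.5 of 0, and array 1 is the leftmost point in 21 of the 40 rows.

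The receptors themselves did not pass. Ppara, which encodes PPAR-alpha, had normalized intensities of 2846, 3829, 3563 and 3481 in the Th3 samples of arrays 1 to 4, against 2603, 3300, 3820 and 3282 in the control samples. The groups overlapped, and the sample pair of array 1 was the lowest on both sides. Its log2 ratio was 0.08 ± 0.13 (SD, n = 4, limma adjusted p = 0.36), with a 95% interval from -0.06 to 0.22. Rxra, its partner in DNA binding, had 7403, 8208, 8645 and 8494 in Th3 kidney and 7253, 8065, 7649 and 7088 in control kidney. All 4 arrays were above 0, by little on arrays 1 and 2, and the log2 ratio of 0.12 ± 0.12 had an adjusted p of 0.143 in the limma fit (interval -0.0019 to 0.25). Ppard, the PPAR-delta gene, was not well above background in any control sample and was in 3 of the 4 Th3 samples, so it was not tested.

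Uptake, binding and activation held the largest change. Acsl1, a long-chain acyl-CoA synthetase that is a known PPAR target, had normalized intensities of 29219, 43813, 49402 and 35585 in Th3 kidney, against 21200, 16228, 18702 and 19170 in control kidney. Every Th3 sample was above every control sample. The log2 ratio was 1.05 ± 0.46 (n = 4), a 2.07-fold increase, with an adjusted p of 0.00796 in the limma fit. The increase was uneven between arrays, with log2 ratios of 0.46 on array 1, 1.43 on array 2, 1.40 on array 3 and 0.89 on array 4. The highest Th3 sample was 1.69 times the lowest, whereas the control samples spanned 1.31-fold. Acsl1 has 3 probes above background within 2 kb of the mouse genome, at chr8:48034695-48034754 for the brightest and at chr8:48033237-48033296 and chr8:48033545-48033604 for the others (build mm8, plus strand). The other probes gave log2 ratios of 0.76 ± 0.47 and 0.71 ± 0.38, and both were lowest on array 1 and highest on array 3. Acsl1 was called under all 14 alternative settings, with a log2 ratio from 0.80 to 1.29. In the authors' deposited table it was 2.033-fold higher with an adjusted p of 0.01624.

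Fabp1, the liver-type fatty acid binding protein and a classical PPAR-alpha target, had normalized intensities of 3895, 3220, 3073 and 4350 in Th3 kidney, against 1569, 2850, 3154 and 2230 in control kidney. The log2 ratios were 1.31 and 0.96 on arrays 1 and 4, and 0.18 and -0.04 on arrays 2 and 3. The groups overlapped through array 3. The log2 ratio of 0.60 ± 0.64 did not pass (limma adjusted p = 0.095), with an interval from 0.09 to 1.12. Leaving out array 2 gave 0.89 and a call, although the arrays left read 1.31, -0.04 and 0.96. A fit of so few arrays leans on the variance pooled over genes, so this call says little about the spread of Fabp1. With all 4 arrays it was also called under median centring (0.67, 0.019) and with separate channels (0.60, 0.0434), so the call turns on the array left out, the scaling and the model.

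Arrays 1 and 4 were also those on which the median of the hepatocyte genes stood highest, though not every gene followed it. Of 8 hepatocyte genes tested, 6 rose in Th3 kidney and Apob fell (75% and 12.5%, beside 10.9% and 10.6% of all genes). The median log2 ratios of the 8 on arrays 1 to 4 were 1.12, 0.18, 0.50 and 0.77. Their summed intensity ran from 8650 to 10714 in Th3 samples and from 4359 to 8273 in control samples. Of the 6, Cps1 and Apoa1 were dim, with mean intensities of 84 and 92 in control samples and 136 and 123 in Th3 samples. Ahsg, which encodes the plasma protein fetuin-A, rose by 1.99 ± 0.85 (limma adjusted p = 0.007), and Alb, the albumin gene, had 0.59 and was not called. Ahsg, Alb, Cps1 and Apoa2 stood highest on arrays 1 and 4. Fgb, Ttr and Apob were lowest on array 4 (0.88, 0.15 and -0.68), and Apoa1 read 0.43 there against 0.47 on array 3. The part of these genes in the Fabp1 ratio was not tested.

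**Figure D2:**
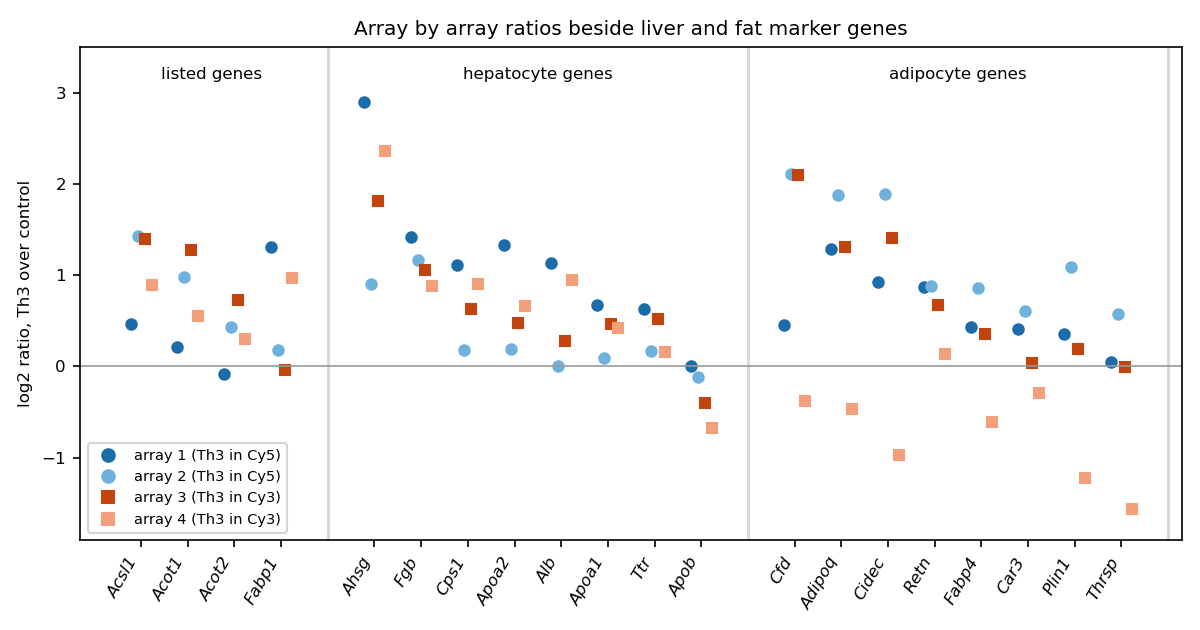
Log2 ratio of Th3 over control on each of the 4 arrays for Acsl1, Acot1, Acot2 and Fabp1, and for the tested hepatocyte and adipocyte marker genes. Fabp1 is high on arrays 1 and 4, as are Ahsg and Alb, whereas Fgb, Ttr and Apob are lowest on array 4. Acsl1, Acot1 and Acot2 are low on array 1, and most adipocyte genes are low on array 4.

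The promoter of Fabp1 is shown. Of the listed genes' promoters searched, it alone matched a direct repeat of the kind that PPAR and RXR bind. The motif searched, on both strands, was 2 copies of AGGNCA in the same direction with any 1 base between them. It was found in 125 of 32851 promoter windows (0.381%), each covering 250 bases before to 50 after a RefSeq gene start (GRCm38.p6). For 37 of the 42 genes a window was at hand, and Fabp1 was the 1 match. Repeats outside these windows or with other letters were not searched. In the stretch before the start of Fabp1 at chr6:71199629-71199878 (plus strand), capitals mark the repeat, which lies on the minus strand and begins 67 bases before the start, and a separate single half-site AGGTCA, also on the minus strand:
Fabp1: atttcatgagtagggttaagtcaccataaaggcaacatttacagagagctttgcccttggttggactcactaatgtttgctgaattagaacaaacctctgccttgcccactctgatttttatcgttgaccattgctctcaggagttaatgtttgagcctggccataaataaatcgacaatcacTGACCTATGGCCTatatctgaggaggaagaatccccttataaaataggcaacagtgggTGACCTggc
The half-site AGGTCA, which overlaps the repeat in Fabp1, was far more frequent, in 16.3% of all windows and in 10 of the 37 listed genes with one. The 37 genes have 42 windows, and a gene counts if any of its windows matches, so the 2 shares are not in the same unit. Echs1 was the only called gene among those 10. Its half-site, in capitals, lies 83 bases before the start, in the stretch at chr7:140116439-140116564 (GRCm38.p6, minus strand):
Echs1: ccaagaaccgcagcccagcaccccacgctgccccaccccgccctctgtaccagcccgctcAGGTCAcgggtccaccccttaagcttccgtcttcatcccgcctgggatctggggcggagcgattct
A match says only that these letters are there, and binding was not measured.

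The other 3 genes of this step did not pass. Acsl3, a second acyl-CoA synthetase, had 0.19 ± 0.32 (limma adjusted p = 0.0555), with 0.47 and 0.45 on arrays 3 and 4 and values of 0.00 and -0.16 on arrays 1 and 2. Cd36, a fatty acid carrier of the cell surface, gave 0.07 ± 0.20 with its brighter probe and -0.04 ± 0.16 with the other. Fabp3, the heart-type fatty acid binding protein, gave -0.09 ± 0.22.

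In the carnitine shuttle, 2 of 4 genes fell (50%, beside 10.6% of all genes). Cpt2, which rebuilds acyl-CoA inside the mitochondrion, had normalized intensities of 9915, 12840, 13372 and 13918 in Th3 kidney, against 14246, 14468, 15519 and 15675 in control kidney. All Th3 samples were below all control samples, though the highest Th3 sample lay just under the lowest control sample. Cpt2 stood at 82.9% of control (log2 ratio -0.27 ± 0.17, n = 4, limma adjusted p = 0.0394). Array 1, at -0.52, lay apart from the other arrays at -0.17 to -0.21, and without it the adjusted p was 0.221 with a log2 ratio of -0.18. Leaving out array 3 or array 4 also ended the call (0.108 and 0.085).

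Crat, which moves acetyl and short acyl groups between carnitine and CoA, had 4575, 4916, 5128 and 4875 in Th3 kidney, against 5665, 5517, 5659 and 5609 in control kidney. The groups did not overlap, and the control samples lay within a narrow band. Crat stood at 86.8% of control (log2 ratio -0.20 ± 0.07, limma adjusted p = 0.0432), the smallest of the 8 decreases. It was not called without any 1 of the arrays (adjusted p from 0.0753 to 0.266).

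Cpt1a, which makes the acylcarnitines and sets the pace of the shuttle, was not called. Its brighter probe had 10332, 12532, 11534 and 9226 in Th3 kidney, against 9750, 8681, 10871 and 11297 in control kidney, a log2 ratio of 0.10 ± 0.34 (limma adjusted p = 0.493). The sign differed between arrays, from 0.53 on array 2 to -0.29 on array 4. Its other probe read -0.29 ± 0.17, below 0 on every array, so the direction of Cpt1a depends on the probe. Slc25a20, the carrier that exchanges acylcarnitine for carnitine across the inner membrane, gave -0.12 ± 0.14 (adjusted p = 0.265).

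Mitochondrial beta-oxidation moved in both directions, with 1 of 11 genes higher and 3 lower (9.09% and 27.3%, beside 10.9% and 10.6% of all genes). Echs1, the enoyl-CoA hydratase of the second step, had normalized intensities of 19254, 20324, 19591 and 17378 in Th3 kidney, against 16674, 16241, 15510 and 15465 in control kidney. Every Th3 sample was above every control sample. The increase was 1.20-fold (log2 ratio 0.26 ± 0.08, limma adjusted p = 0.0249) and was seen on all 4 arrays, from 0.17 to 0.34. The call ended without array 2 or array 3 (adjusted p = 0.108 and 0.0726).

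Hadha and Hadhb encode the alpha and beta subunits of the trifunctional protein, which carries out the last 3 steps for long chains. Hadha had 443, 465, 496 and 509 with its brightest probe in Th3 kidney, against 581, 533, 540 and 663 in control kidney, without overlap. It stood at 82.7% of control (log2 ratio -0.27 ± 0.13, limma adjusted p = 0.0333). A dimmer probe read the other way on all 4 arrays, at 0.15 ± 0.02, and the mean of the probes gave -0.06 with an adjusted p of 0.428. The brightest probe lies at chr5:30450462-30450521 and the dimmer one at chr5:30484885-30484944 (mm8, minus strand). The array lists the brightest probe under a RefSeq transcript of Hadha, and the dimmer one under a cDNA clone that was matched by its gene symbol alone. Without array 1 or array 4 the Hadha call also ended (adjusted p = 0.133 and 0.0918). Hadhb gave -0.07 ± 0.21 (adjusted p = 0.575).

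Decr1, the 2,4-dienoyl-CoA reductase needed for unsaturated chains, had 268, 354, 356 and 315 in Th3 kidney, against 365, 414, 398 and 408 in control kidney. The groups did not overlap. Decr1 stood at 81.2% of control (log2 ratio -0.30 ± 0.13, limma adjusted p = 0.0232), and its second probe read -0.27 ± 0.15. The call ended without array 1 or array 4 (adjusted p = 0.0927 and 0.0683).

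Acads, the dehydrogenase for short chains, had 991, 1245, 1548 and 1306 in Th3 kidney, against 1644, 1621, 1421 and 1474 in control kidney. The groups overlapped, because array 3 went the other way at 0.12 while array 1 was at -0.73. The log2 ratio was -0.29 ± 0.36 with an adjusted p of 0.0485 in the limma fit, just inside the threshold. It was 0.198 without the dye term, and above the threshold without array 1, 3 or 4 (0.189, 0.0505 and 0.147).

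The dehydrogenases for longer chains did not follow Acads past the threshold. Acadm, the medium-chain enzyme, had 52323, 68085, 72735 and 68641 in Th3 kidney, against 72254, 62428, 45055 and 55078 in control kidney. Its ratio was negative on array 1 (-0.47) and positive on the others (0.13, 0.69 and 0.32), giving 0.17 ± 0.48 and an adjusted p of 0.322 in the limma fit. Without array 1 it was 0.31 and called (0.0372). Acadl, the long-chain enzyme, gave 0.01 ± 0.18, and Acadvl, the very-long-chain enzyme, -0.06 ± 0.17. Their 95% intervals ran from -0.18 to 0.20 and from -0.19 to 0.07.

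Eci1, the isomerase for unsaturated chains, had 12759, 14031, 13496 and 13696 in Th3 kidney, against 11824, 12304, 12077 and 12342 in control kidney. It was the only uncalled gene of the 40 whose groups did not overlap, with a log2 ratio of 0.15 ± 0.03 and an adjusted p of 0.084 in the limma fit. Etfdh, which passes the electrons on to ubiquinone, gave 0.10 ± 0.13, and Acaa2, the thiolase, -0.04 ± 0.06.

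In peroxisomal beta-oxidation 1 of 9 genes rose and 1 fell (11.1% each, near the 10.9% and 10.6% of all genes). Eci2, an isomerase of peroxisomes and mitochondria, had normalized intensities of 34086, 38239, 41316 and 45034 in Th3 kidney, against 31474, 29341, 32421 and 34771 in control kidney. The lowest Th3 sample lay under the highest control sample, yet within each array Th3 was higher. The log2 ratio was 0.31 ± 0.13, a 1.24-fold increase (limma adjusted p = 0.0192), with 0.12 on array 1 and 0.35 to 0.38 on the others. Without array 2, 3 or 4 the adjusted p was 0.0895, 0.0535 and 0.054.

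Acaa1b, a peroxisomal thiolase, had 13148, 15429, 16141 and 13819 in Th3 kidney, against 17108, 17143, 20175 and 18035 in control kidney. The groups did not overlap. It stood at 80.7% of control (log2 ratio -0.31 ± 0.11, limma adjusted p = 0.0163), and the call ended without array 1 (0.0764).

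Acaa1a, its close relative, was not called, and its 3 probes did not give the same size. The brightest read -0.05 ± 0.04, and the others -0.19 ± 0.39 and -0.33 ± 0.19. The probe with -0.33 is listed on the array for transcripts of both Acaa1a and Acaa1b, so it cannot be assigned to either.

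The other 6 peroxisomal genes lay between -0.07 and 0.06 with no call. Ehhadh, the bifunctional enzyme and a strong PPAR-alpha target in liver, gave -0.07 ± 0.29 (limma adjusted p = 0.666). Its normalized intensities were 11086, 16451, 15553 and 11846 in Th3 kidney and 14255, 15833, 12845 and 14242 in control kidney. Th3 was lower on arrays 1 and 4 and higher on arrays 2 and 3. Pex11a, which takes part in peroxisome division, gave -0.03 ± 0.28. Acox2 and Acox3, oxidases for branched chains and bile acid precursors, gave 0.01 ± 0.37 and 0.06 ± 0.06, and the auxiliary enzymes Decr2 and Ech1 gave -0.04 ± 0.20 and -0.06 ± 0.17.

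Acyl-CoA thioesterases split acyl-CoA into free fatty acid and CoA. Acot1, the cytosolic enzyme and a PPAR-alpha target in mouse liver and heart, had normalized intensities of 7041, 12200, 13716 and 9276 in Th3 kidney, against 6066, 6183, 5661 and 6328 in control kidney. Every Th3 sample was above every control sample. The control samples spanned 1.12-fold and the Th3 samples 1.95-fold, so the spread of the ratio lies on the Th3 side. The log2 ratio was 0.76 ± 0.47, a 1.69-fold increase (n = 4, limma adjusted p = 0.0187), with 0.22, 0.98, 1.28 and 0.55 on arrays 1 to 4. The call ended without array 3 (0.0674) and with the pair of arrays as a random block (0.06). The authors' deposited table lists Acot1 at 1.695-fold higher with an adjusted p of 0.02943. Of the other called genes, Acsl1, Ucp2 (0.01624) and Decr1 (0.03169) were also under 0.05 in the authors' table. Acaa1b, Hadha, Echs1, Acot8, Cpt2, Eci2, Crat and Acads were above 0.05 there, from 0.05043 for Acaa1b to 0.20816 for Acads.

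Acot2, the mitochondrial enzyme next in sequence to Acot1, had 446, 663, 721 and 573 in Th3 kidney, against 471, 492, 436 and 464 in control kidney. Its arrays fell in the same order as those of Acot1, with -0.08, 0.43, 0.72 and 0.30. The log2 ratio was 0.34 ± 0.33 and did not pass (limma adjusted p = 0.0615), while without array 1 it was 0.47 and called (0.00289). Because Acot1 and Acot2 are near copies, RNA of each could bind the probe of the other, which was not tested.

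Acot3, a peroxisomal enzyme, had 391, 537, 589 and 548 in Th3 kidney, against 518, 435, 487 and 451 in control kidney. Array 1 read -0.41 and the other arrays 0.27 to 0.30, giving 0.11 ± 0.35 (limma adjusted p = 0.512), and without array 1 it was 0.29 and called (0.0393). Acot4, also peroxisomal, gave -0.10 ± 0.19.

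Acot8, the peroxisomal enzyme of wide substrate range, went the other way. It had 3260, 3986, 4160 and 3762 in Th3 kidney, against 4839, 5278, 4542 and 4227 in control kidney, without overlap. Acot8 stood at 80.3% of control (log2 ratio -0.32 ± 0.21, limma adjusted p = 0.0118), with larger decreases on arrays 1 and 2 (-0.57 and -0.41) than on arrays 3 and 4 (-0.13 and -0.17). The adjusted p was 0.0642 without the dye term and 0.0508 without array 1. Dye orientation and pair of arrays cannot be told apart here.

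**Figure D3:**
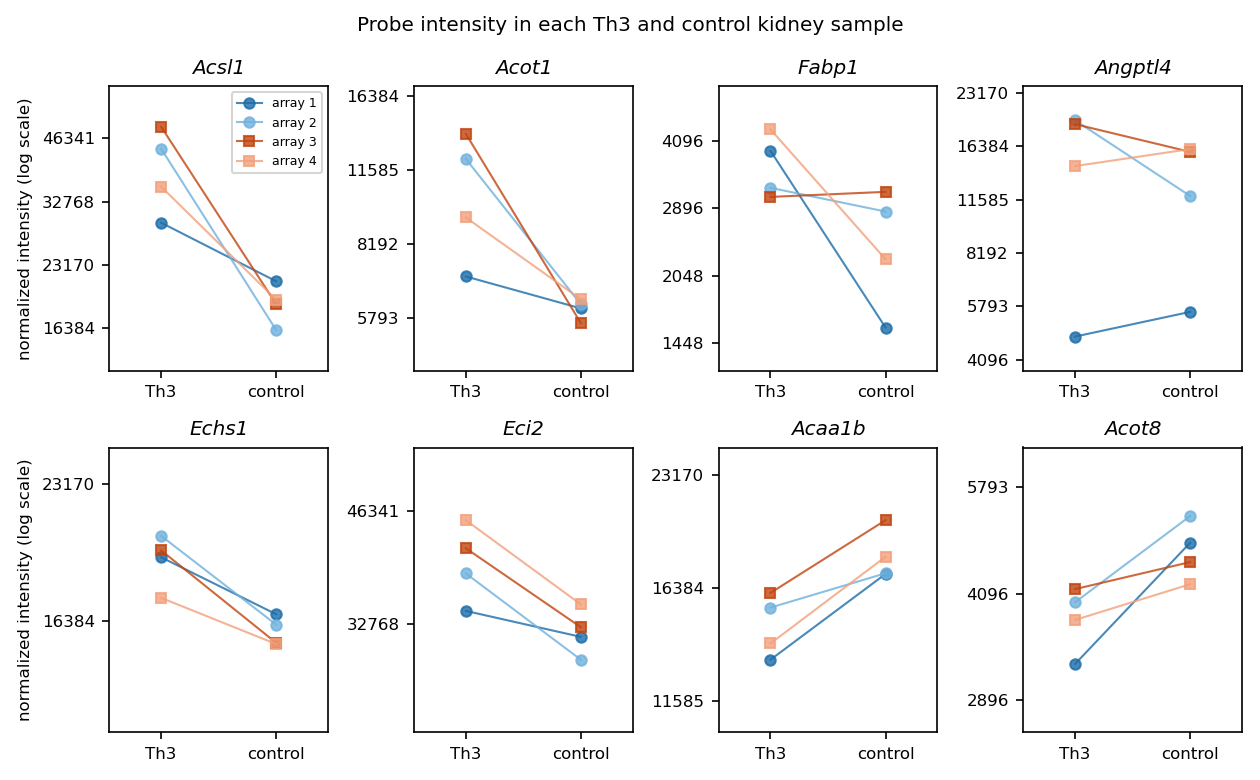
Normalized probe intensity (log scale, a scale of its own in each panel) in the Th3 sample and the control sample of each array, joined by a line, for 8 genes. Th3 samples are spread and control samples close together for Acot1; Angptl4 is low in both samples of array 1; Fabp1 differs mainly on arrays 1 and 4.

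Among ketone body genes and other PPAR targets, 1 of 4 tested genes was called, where 21.5% of all genes were called in either direction. Ucp2, an uncoupling protein of the inner mitochondrial membrane, had 259, 263, 276 and 272 in Th3 kidney, against 337, 294, 358 and 358 in control kidney. The groups did not overlap. It stood at 79.7% of control (log2 ratio -0.33 ± 0.11, limma adjusted p = 0.0126), and without array 1 the adjusted p was 0.0526. A second kept probe read -0.03 ± 0.08, and the mean of the probes gave -0.18 and 0.0519. Macrophages are rich in Ucp2, and 7 of 7 macrophage genes tested fell in Th3 kidney (100%, beside 10.6% of all genes). Their summed intensity ran from 4978 to 6834 in Th3 samples and from 6816 to 9621 in control samples. Their part in the Ucp2 decrease was not tested. In bulk tissue, fewer cells of a type and less RNA per cell cannot be told apart.

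Angptl4, a secreted inhibitor of lipoprotein lipase and a PPAR target, had normalized intensities of 4762, 19389, 18916 and 14410 in Th3 kidney, against 5590, 11862, 15799 and 16092 in control kidney. Both samples of array 1 were far below all others, so the samples parted by array rather than by genotype. The log2 ratio was 0.14 ± 0.43 (limma adjusted p = 0.541), and without array 1 it was 0.38 and called (0.0139). Vnn1, a pantetheinase that responds to PPAR-alpha in mouse liver, gave -0.12 ± 0.12, and both samples of array 1 were again the lowest of their group. Bdh1, the beta-hydroxybutyrate dehydrogenase, gave 0.02 ± 0.32 with its brighter probe and -0.21 ± 0.37 with the other. Ucp3, the uncoupling protein of muscle and brown fat, was well above background in 0 Th3 samples and 1 control sample and was not tested.

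**Figure D4:**
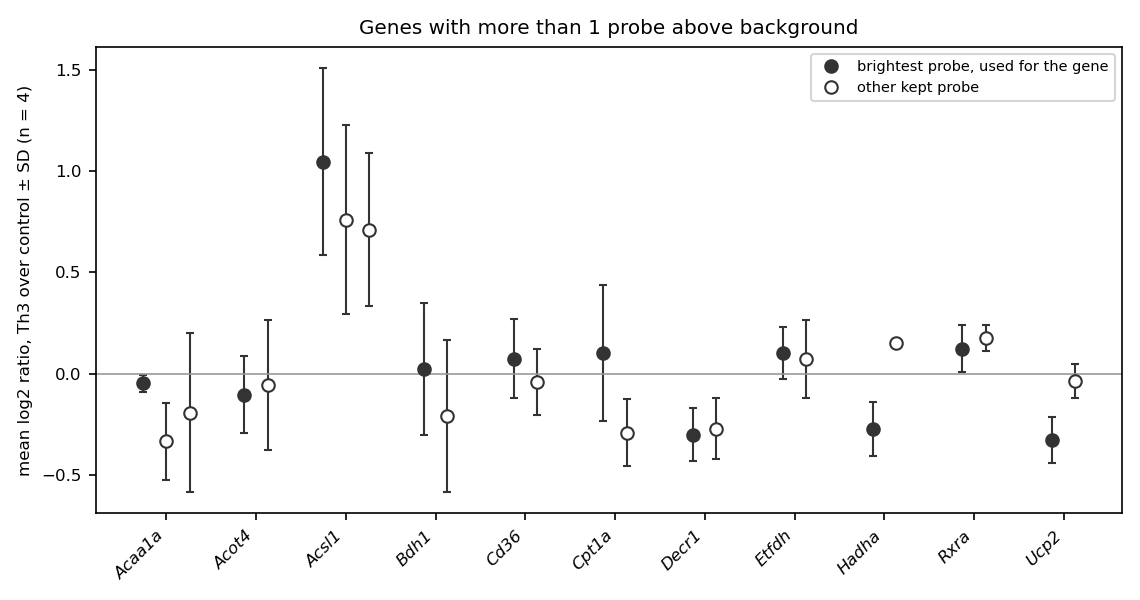
Mean log2 ratio of Th3 over control with its SD over 4 arrays for every kept probe of the 11 genes that had more than 1; filled circles are the brightest probes, open circles the others. All 3 Acsl1 probes lie well above 0 and both Decr1 probes below it, while Hadha, Cpt1a, Bdh1 and Cd36 have probes on both sides of 0.

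Probes could be compared within 11 genes. In 4 of these, Hadha, Cpt1a, Bdh1 and Cd36, the kept probes differed in sign, and among called genes that touched Hadha alone. Both Rxra probes were above 0 (0.12 and 0.18), as were both Etfdh probes (0.10 and 0.07), and both Acot4 probes were below it (-0.10 and -0.06). Eci2, Echs1, Acot1, Acot8, Acaa1b, Acads, Cpt2 and Crat rest on 1 kept probe each.

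Array 1 stood apart for these genes. It gave the lowest of the 4 ratios in 21 of the 40 genes (52.5%), whereas it was the lowest in 22.7% of all genes. The median log2 ratio of the 40 genes was -0.15 on array 1 and 0.04, 0.07 and 0.05 on arrays 2, 3 and 4. Over all genes the array medians lay between -0.01 and 0.02. No dye term of the 40 genes passed the threshold, with Acsl3 at the lowest adjusted p (0.0912).

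Another 77 genes of the same pathways, taken from a list of neighbours in function, were read beside the 40. Of the 74 tested, 10 were higher (13.5%, beside 10.9% of all genes) and 19 lower (25.7%, beside 10.6%). The largest decreases were those of Acsm2 (-0.90 ± 0.28) and Acsm1 (-0.86 ± 0.12), medium-chain acyl-CoA synthetases. Oxct1, which activates ketone bodies for use, fell by 0.69 ± 0.30, and Pecr, a peroxisomal enoyl-CoA reductase, by 0.68 ± 0.19. The largest increases were those of Hilpda (0.68 ± 0.17), a lipid droplet protein and hypoxia target, and Hacl1 (0.65 ± 0.38), a lyase of phytanic acid oxidation. Creb3l3, a transcription factor of liver lipid metabolism, rose by 0.58 ± 0.35 and Acss1, the mitochondrial acetyl-CoA synthetase, by 0.45 ± 0.25. As with the 40 genes, array 1 had the lowest median of these genes (-0.16).

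Markers of the proximal tubule were read beside these genes. Of 15 proximal tubule genes, 10 fell in Th3 kidney (66.7%, beside 10.6% of all genes) and 0 rose, with a median log2 ratio of -0.37. The median of the 40 listed genes was -0.01. The summed intensity of the 15 ran from 534019 to 628142 in Th3 samples and from 831987 to 905238 in control samples. Kap, an androgen-responsive gene of the tubule, fell by 3.34 ± 0.32. Without Kap, a sum taken after its values were seen, the other 14 genes ran from 515929 to 590695 in Th3 samples and from 557882 to 642158 in control samples. The groups then overlapped, with the Th3 sum lower within each of the 4 arrays. Their part in the decreases of Cpt2, Crat, Decr1, Acads, Hadha, Acaa1b and Acot8 was not tested. The summed intensity of the 40 genes themselves, from 423489 to 525926 in Th3 samples and from 445099 to 460551 in control samples, overlapped.

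Fat cells also burn or store fatty acids, and their markers were uneven between arrays. Of 7 brown fat genes tested, Ucp1, Cox8b and Cidea fell by 3.40 ± 0.93, 1.23 ± 0.91 and 1.11 ± 0.95. These are 42.9% of the 7, beside 10.6% of all genes. On array 2 Cox8b and Cidea were level (0.02 and -0.01). The other 4 were not called, with Prdm16 and Ebf2 above 0 (0.16 and 0.07) and Cox7a1 and Slc36a2 below it (-0.15 and -0.23). The summed intensity of the 7 ran from 12877 to 19697 in Th3 samples and from 14166 to 51467 in control samples. Of 8 adipocyte genes tested, Adipoq and Retn rose (25%, beside 10.9% of all genes). Their log2 ratios were 1.00 ± 1.02 and 0.64 ± 0.35, with Adipoq at -0.47 on array 4. The other 6 were not called. The median log2 ratios of the 8 genes were 0.45, 0.99, 0.52 and -0.54 on arrays 1 to 4. Their summed intensity ran from 80495 to 107865 in Th3 samples and from 38194 to 117482 in control samples. Acsl1 and Acot1 read 0.89 and 0.55 on array 4, lower than on arrays 2 and 3, as the adipocyte median was, and were lowest on array 1, where that median was not. The part of fat in these ratios was not tested. Podocyte and endothelial genes had 0 calls of 4 and 0 of 7. Of the 8 distal nephron genes 2 rose and 1 fell (25% and 12.5%, beside 10.9% and 10.6% of all genes).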

How the data were processed

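Kidney RNA of 4 Th3 and 4 control samples was measured on 4 two-colour arrays of design 014868. Spot and background intensities are those of the deposited scanner files, made with Agilent Feature Extraction 9.5.3.1 per the file headers and not normalized. Its processed intensities and its log10 ratio of Cy5 over Cy3, per the file headers, served as an alternative and to check direction. The authors deposited log2 ratios, a signed fold, which is a score here, and an adjusted p-value, by a method not given in the sources used here.

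With R 4.3.3, limma 3.58.1 and data.table (version 1.17.8), signals were corrected by normexp (offset 50) and loess (span 0.3, 4 iterations). A probe was kept if well above background in all 4 samples of either group and measured on 3 arrays or more, as held for 26434 probes. Each gene is read from its brightest kept probe and was named through a RefSeq table of GRCm38.p6. Positions of probes are the array's own, on mm8, and exons or UTRs were not annotated. Log2 ratios were fitted with lmFit and eBayes on a Th3 and a dye term. With all 4 arrays this left 2 residual and 4.52 prior degrees of freedom, and the fit was tested on simulated data. A ± is the SD over arrays. Normalized intensities were scaled between channels by Aquantile after loess, and single probes are not compared with each other; in the sum of a list the bright probes weigh most. The number of arrays limits the precision.

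The genes, roles, other lists and tests were chosen with earlier results of these data known. Named are all called genes of the list, Ppara, Ppard, Rxra and Acot1, uncalled genes whose probes or arrays disagree, 8 called neighbours by size, and Hbb-b1. Uncalled genes are otherwise given in a clause. Some items are not reported here.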

Additional observations from a re-analysis of the deposited data

Results flagged for a closer look

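In 4 of the 40 genes, 1 array lay far from the other arrays by Dixon's criterion for a group of 4, which chance exceeds in about 1 group in 20. Acot3 read -0.4056 on array 1, against 0.27 to 0.30 on the other arrays. Cpt2 read -0.5229 on array 1, against -0.17 to -0.21. Eci2 read 0.115 on array 1, against 0.35 to 0.38. Ucp2 read -0.1605 on array 2, against -0.38 to -0.40. In 3 of these 4 genes the distant array was array 1, and in each it was the lowest.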

How the results depend on the processing

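Over 14 alternative settings, Acsl1 was called in 14, Acot1 and Ucp2 in 12, Acaa1b in 11, Acot8, Decr1 and Echs1 in 10, Eci2 in 9, Hadha in 7, and Acads, Cpt2 and Crat in 5, and none of these 12 genes changed sign. Of genes not called in the report, Fabp1 and Acsl3 were called in 3 settings, Acot2 in 2, and Acadm, Acot3, Angptl4 and Eci1 in 1. The listed genes called higher and lower were 2 and 4 with Agilent's processed signals, 1 and 1 with the pair of arrays as a random block (estimated correlation 0.183), and 8 higher with separate channels. Genes called lower numbered 1 with median centring, 3 without the dye term and 5 with the mean of a gene's probes. Leaving out 1 array gave 1 to 8 higher and 0 to 7 lower, in fits that lean more on the variance pooled over genes. Over all genes, against 1927 higher and 1866 lower, there were 1102 and 888 without the dye term, 645 and 554 with the block, 1144 lower with median centring, 2982 higher with separate channels, and 1325 to 1612 higher and 1246 to 1578 lower with 1 array left out. Other pathway genes were 10 higher and 19 lower. They became 6 higher without the dye term (6.25% of all genes), and 2 higher and 9 lower with the block (3.66% and 3.14%). With median centring 11 were lower (6.49%). With 1 array left out, 7 to 12 were higher (7.52% to 9.15% of all genes) and 14 to 20 lower (7.07% to 8.96%). Median centring moved the median log2 ratio of all genes by under 0.1, to 0.022. Where a call was lost, the cause was not tested. Each ratio already pairs a Th3 sample with the control sample of its array.

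The arrays are few, and the dye orientation and the pair of arrays cannot be told apart. Ppard and Ucp3 were too dim to test.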
